A study of Mus musculus with 12 samples.

Results

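Histone lysine methylases and demethylases other than the H3K27 demethylases and Kdm5c and Kdm5d were followed across 4 genotypes of sorted mouse blood progenitors. The members were 51 of the 15366 genes in the deposited table of normalised read counts, chosen by symbol from the Kdm, Kmt, Setd, Nsd, Ehmt, Suv39h, Suv420h, Dot1l, Smyd, Prdm9, Phf8, Phf2, Whsc1, Ash1l and Jmjd families. The list leaves out Kdm6a, Kdm6b, Kdm5c and Kdm5d. The cells were bone marrow LSK cells (lineage-negative, Sca-1+, Kit+), from untreated C57BL/6 mice whose age is not in the labels. Each of the 4 groups had 3 RNA-seq libraries. The control, Vav Cre, carries Cre recombinase driven by the Vav promoter, which is active in blood cells. The KDM6B OE group carries the human KDM6B gene as a Vav transgene, and its genotype label names no Cre. If that group lacks Cre, comparisons that use it cannot tell Cre apart from the transgene or from floxed Tet2. Tet2 KO is Vav Cre with Tet2 flox/flox, and the double lesion group joins Vav human KDM6B, Vav Cre and Tet2 flox/flox. Whether replicate libraries stem from different mice is not stated in the labels, and every p-value here therefore reflects the scatter among these libraries only, part of which may be technical.

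Histones are methylated on lysines by SET domain enzymes, and by DOT1L, which has a different catalytic fold. They are demethylated by the flavin-dependent LSD1 enzymes (Kdm1a and Kdm1b) and by the Jumonji enzymes, which use iron and 2-oxoglutarate, the cofactors that TET2 also needs. H3K4 and H3K36 methylation mark promoters, enhancers and transcribed genes, while H3K9 and H4K20 methylation go with silent chromatin. In blood cells the MLL enzymes (Kmt2a to Kmt2e), LSD1 and Nsd2 (listed here under its older symbol Whsc1) are among those with known roles in stem cells or leukaemia.

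Every value below is in CPM, a read count scaled by the effective library size, which serves to compare a gene between libraries. Where different genes are compared in level, values are given per kb of transcript. The libraries held between 21935022 and 26263370 reads on listed genes, and 1 read was worth 0.0373 to 0.0463 CPM. Tet2 was measured at 24.1 to 37.2 CPM in the 6 floxed libraries and at 64.9 to 97.1 CPM in the other 6. The mouse alignment has no separate entry for the human transgene. By limma, mouse Kdm6b was called higher on average in the transgenic libraries, but 14 of 23 alternative settings lost the call. Its log2 difference ranged from 0.27 to 0.68 over these settings. Whether reads of the human transgene fell on mouse Kdm6b was not tested. All 10 stem and progenitor markers were above 1 CPM in every library, Kit between 356 and 907 CPM, Ly6a (Sca-1) between 78.2 and 180.0 CPM and Cd34 between 821 and 1053 CPM. The sum of these 10 markers was between 2510 and 3263 CPM in Vav Cre, between 3194 and 3605 in KDM6B OE, between 3051 and 3833 in Tet2 KO and between 3471 and 4106 in the double lesion, which did not overlap Vav Cre. For 7 of 8 listed T and NK cell genes the sum was between 284 and 376 CPM in Vav Cre, between 226 and 320 in KDM6B OE, between 280 and 302 in Tet2 KO and between 256 and 281 in the double lesion, again without overlap between the last and the first. For 9 neutrophil genes it was between 2228 and 4883 CPM in Vav Cre, between 2670 and 3741 in KDM6B OE, between 2730 and 7257 in Tet2 KO and between 3024 and 5893 in the double lesion. The sum for 6 of 8 listed B cell genes reached 182 CPM in 1 Tet2 KO library and 108 CPM at most elsewhere. The part of these lists in the members' values was not tested. All 10 immediate early genes together summed to 5736 to 9530 CPM in the 6 transgenic libraries against 1109 to 2582 CPM in the rest. Transcripts of the Y chromosome were present in 4 libraries (Vav Cre 1, Tet2 KO 1, double lesion 1 and 3) and absent from 8. In these bulk samples, fewer cells of a type and less RNA per cell cannot be told apart.

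Of the 51 members, 49 had more than 1 CPM in at least 3 libraries and were tested. The other 2 were Jmjd7, at 0.07 to 0.46 CPM, and Kdm4d, a demethylase best known from testis, at 0 to 0.85 CPM. Together the members took 0.314% to 0.431% of all CPM in a library. Per kb of the longest coding transcript, the order of the mean levels over 12 libraries began with Smyd2 at 79.1 CPM per kb, Suv39h1 at 51.8 and Setd3 at 43.7. Smyd2 methylates histone H3 and p53, Suv39h1 places H3K9 trimethylation on pericentric chromatin, and Setd3 methylates a histidine of actin. Smyd2 lay at 123, 114 and 137 CPM in Vav Cre, 143, 154 and 153 in KDM6B OE, 124, 115 and 136 in Tet2 KO, and 127, 132 and 137 in the double lesion. Suv39h1 lay at 164, 148 and 192 CPM in Vav Cre, 149, 175 and 167 in KDM6B OE, 161, 165 and 167 in Tet2 KO, and 139, 155 and 155 in the double lesion. Setd3 lay at 132, 132 and 101 CPM in Vav Cre, 116, 110 and 118 in KDM6B OE, 126, 130 and 129 in Tet2 KO, and 119, 112 and 122 in the double lesion. For Smyd2 the KDM6B OE libraries were all above the 3 controls, while for Suv39h1 and Setd3 they overlapped the controls.

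Within the H3K4 methylases the levels per kb ran from 79.1 (Smyd2) and 34.2 (Kmt2e) down to 1.51 (Setd1a), 1.32 (Prdm9) and 0.87 (Setd1b). Kmt2e is grouped there by its name and SET domain, although its methylase activity is not established, and Prdm9 is the H3K4 methylase of meiotic recombination hot spots. Ash1l, at 19.1 CPM per kb, was also grouped there, although it is known as an H3K36 methylase. Kdm1a (LSD1) led the H3K4 demethylases at 42.3 CPM per kb, followed by Kdm5b at 17.5, Kdm5a at 15.7 and Kdm1b at 3.27. Among H3K9 methylases Suv39h1 stood above Ehmt1 (20.4), Ehmt2 (14.3) and Suv39h2 (4.11). The H3K9 demethylases spanned 20.9 (Kdm3a) to 1.79 (Kdm7a), and the group of H3K36 methylases, without Ash1l, 16.8 (Nsd1) to 6.27 CPM per kb (Whsc1l1). Neighbours in this order mostly overlapped across libraries, as the plot of level per length shows.

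**Figure D1:**
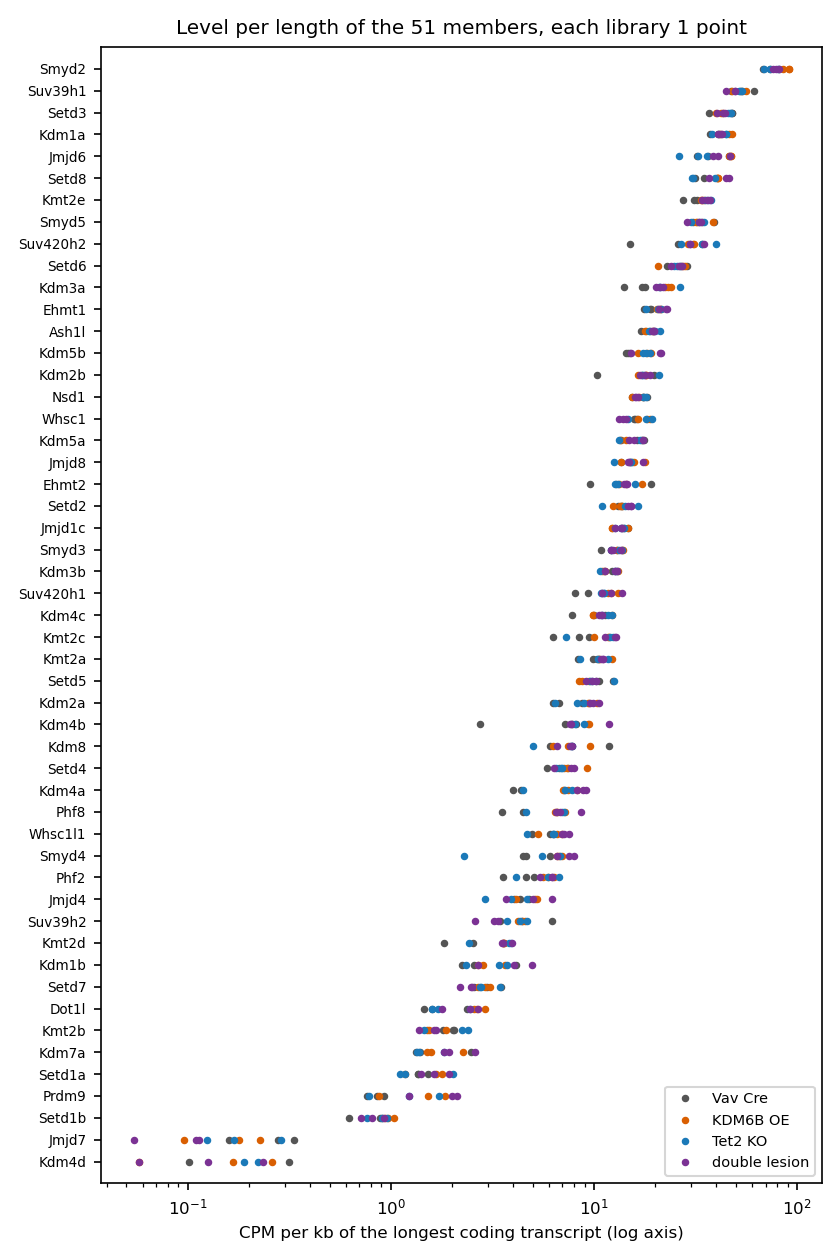
Level of each of the 51 members per kb of its longest coding transcript, in CPM per kb on a log axis, with 1 point per library coloured by group; values of 0 cannot be drawn on this axis. Smyd2 is at the top and Jmjd7 and Kdm4d are set apart at the bottom, with the 4 groups intermingled in most rows.

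The double lesion was the genotype in which members passed the test against Vav Cre. Using limma on log2(CPM + 1) over 13046 genes, 3 of 49 members were higher in the double lesion and 0 were lower at adjusted p under 0.05. The background was 7.34% of all genes tested higher and 7.58% lower, so the members' shares were near the background for higher calls and below it for lower calls. The 3 were Kdm4a, an eraser of H3K9 and H3K36 trimethylation, Kmt2c (MLL3), which monomethylates H3K4 at enhancers, and Kdm2a, an H3K36 demethylase that binds unmethylated CpG islands. By the role groups above this was 1 of 12 H3K4 methylases, 1 of 9 H3K9 demethylases and 1 of 3 H3K36 demethylases tested. There were 0 of 4 H3K9 methylases, 0 of 4 H3K36 methylases, 0 of 5 H3K79 or H4K20 methylases, 0 of 4 H3K4 demethylases and 0 of 8 of unsettled or non-histone substrate. At an unadjusted p under 0.05 there were 14 members (28.6%), against 32.3% of all genes. On recovered read counts, edgeR's quasi-likelihood test called 2 members (4.08%, against 12.7% of all genes) and DESeq2 called 8 (16.3%, against 20.5%). None of these shares was above its background. With the 6 compared libraries alone in the fit, or with presence of Y transcripts as a term, 0 members were called.

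Below are the bases just upstream of 3 members, of which Kdm4a and Kmt2c passed this test and Suv39h2 is taken up with the H3K9 methylases. They are RefSeq sequences of GRCm38.p6 (mm10), 5′ to 3′ on the gene's own strand, stopping before the GENCODE vM21 start of the gene. Kdm4a is shown at chr4:118180044-118180293, Kmt2c at chr5:25498784-25499033 and Suv39h2 at chr2:3475032-3475236, all on the minus strand. Capitals mark matches on either strand to AP-1 (TGAGTCA or TGACTCA), CRE (TGACGTCA), CCAAT (or ATTGG) and GC box (GGGCGG or CCGCCC) letters.
Kdm4a: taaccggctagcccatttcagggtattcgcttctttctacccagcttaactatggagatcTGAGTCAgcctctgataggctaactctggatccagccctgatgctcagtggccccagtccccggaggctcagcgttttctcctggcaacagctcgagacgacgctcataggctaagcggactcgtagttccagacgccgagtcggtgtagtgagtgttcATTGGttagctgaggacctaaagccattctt
Kmt2c: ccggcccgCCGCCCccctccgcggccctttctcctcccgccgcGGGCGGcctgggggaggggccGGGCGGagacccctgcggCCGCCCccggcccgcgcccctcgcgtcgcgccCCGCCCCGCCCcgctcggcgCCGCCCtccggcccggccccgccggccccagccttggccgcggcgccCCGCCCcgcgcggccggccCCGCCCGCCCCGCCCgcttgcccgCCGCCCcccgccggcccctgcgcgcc
Suv39h2: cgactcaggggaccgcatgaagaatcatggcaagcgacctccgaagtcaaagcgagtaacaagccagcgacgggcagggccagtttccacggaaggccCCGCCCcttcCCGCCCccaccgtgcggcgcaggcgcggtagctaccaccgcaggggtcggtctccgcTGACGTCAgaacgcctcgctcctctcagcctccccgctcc
The Kdm4a window held 1 AP-1 match, 190 bases before the RefSeq start, and 1 CCAAT match at 31 bases. The Kmt2c window had 48 CpG dinucleotides and 12 GC box matches, some of them overlapping. Suv39h2 had the CRE match 85 bases before its RefSeq start. Over the 39 members with a window, 28 (71.8%) held a GC box match, against 32.7% of all 32851 windows of 250 bases. CCAAT letters were in 16 (41.0% against 33.8%), CRE letters in 2 (5.13% against 1.55%) and AP-1 letters in 1 (2.56% against 4.46%). The members' windows had a median of 20 CpG dinucleotides, against 6 over all windows. Each member had the window nearest its GENCODE start, while the windows of the background cover all listed starts of any gene, expressed in these cells or not. The sets are thus unlike, and no comparison with other expressed genes was made. These matches describe letters only.

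Kdm4a (ENSMUSG00000033326.15, chromosome 4, 118136957 to 118180043, minus strand) was at 20.4, 18.7 and 33.4 CPM in Vav Cre, 38.5, 32.7 and 34.6 in KDM6B OE, 33.6, 20.9 and 36.2 in Tet2 KO, and 38.6, 41.2 and 42.7 in the double lesion. All 3 double lesion libraries were above all 9 others, and Vav Cre 1 and 2 and Tet2 KO 2 were low. The double lesion exceeded Vav Cre by 0.78 ± 0.22 on the log2(CPM + 1) scale (SE, 3 libraries each, adjusted p = 0.0365). The adjusted p rose to 0.0886 without Vav Cre 1, 0.131 without Vav Cre 2, and 0.0913 to 0.105 without any double lesion library, and also exceeded 0.05 on leaving out KDM6B OE 2 (0.0527) or KDM6B OE 3 (0.0514).

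Kmt2c (ENSMUSG00000038056.15, chromosome 5, 25271798 to 25498783, minus strand) was at 126, 93.8 and 141 CPM in Vav Cre, 175, 178 and 150 in KDM6B OE, 186, 110 and 179 in Tet2 KO, and 192, 170 and 190 in the double lesion. The double lesion and KDM6B OE libraries were all above the controls, while Tet2 KO 2 lay among them. Its difference between the double lesion and Vav Cre was 0.63 ± 0.19 (log2, adjusted p = 0.0413). The adjusted p ranged from 0.0139 to 0.155 when single libraries were left out, and exceeded 0.05 on leaving out Vav Cre 1 or Vav Cre 2, or any of the KDM6B OE or double lesion libraries. The gene Gm42585 overlaps an exon of Kmt2c on the opposite strand, and the libraries do not mark strand. Opposite-strand exons also overlap other members, among them Jmjd6 (Mettl23), Kmt2e (Srpk2), Setd7 (5031434O11Rik), Suv420h1 (Gm16066), Suv39h1 (Gm14820) and Smyd2 (Gm37422). The part of such overlaps in the members' values was not tested.

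Kdm2a (ENSMUSG00000054611.17, chromosome 19, 4314419 to 4398285, minus strand) was at 57.7, 54.0 and 74.8 CPM in Vav Cre, 88.4, 81.0 and 80.4 in KDM6B OE, 70.7, 55.5 and 76.5 in Tet2 KO, and 91.2, 82.0 and 85.2 in the double lesion. The 6 transgenic libraries were all above the 6 without the transgene, and the floxed and unfloxed libraries overlapped. The double lesion was above Vav Cre by 0.48 ± 0.14 (log2, adjusted p = 0.0414), which ranged from 0.00613 to 0.151 when single libraries were left out, with the libraries named for Kmt2c taking it over 0.05. Next by p came Kdm3a, an eraser of H3K9 mono- and dimethylation, at 0.36 ± 0.12 (adjusted p = 0.0577), and Suv420h1 (Kmt5b), which dimethylates H4K20, at 0.38 ± 0.13 (adjusted p = 0.0590).

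**Figure D2:**
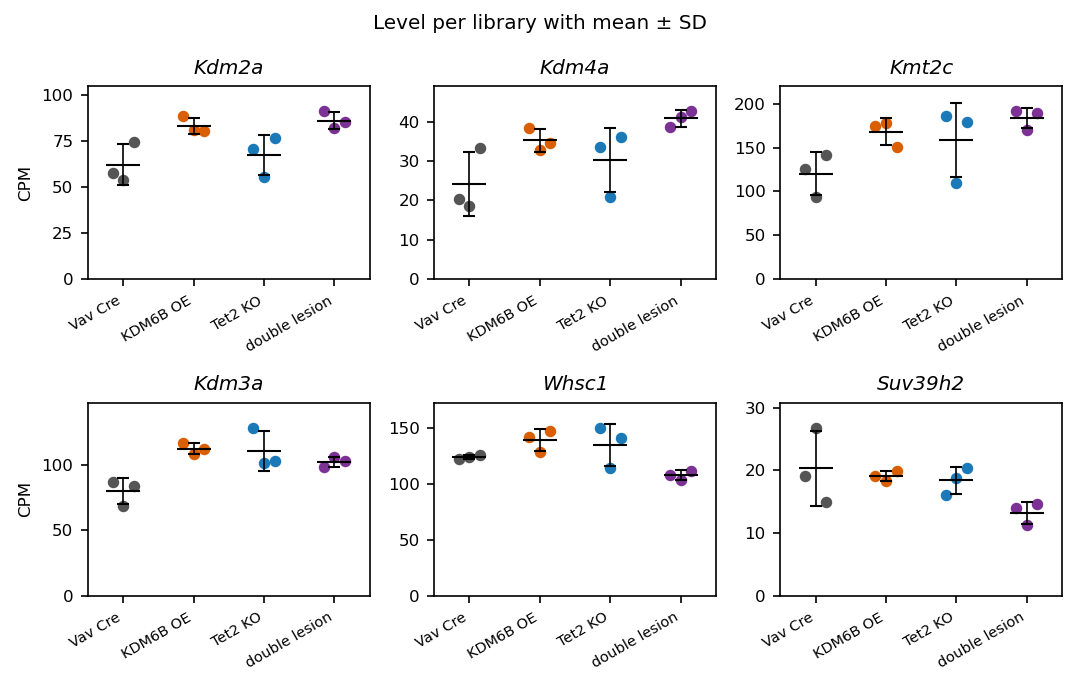
CPM of 6 members in each library (points) with the group mean and SD (n = 3 libraries per group), on axes that start at 0. Kdm2a separates the 6 transgenic from the 6 other libraries, Kdm4a is highest in the double lesion, and Whsc1 and Suv39h2 are lowest there.

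The members as a whole were shifted upwards against the control. Their median log2 difference was 0.17 in KDM6B OE, 0.08 in Tet2 KO and 0.16 in the double lesion, and the medians of all genes tested were 0.04, 0.03 and 0.05. In the double lesion 14 members had all 3 libraries above the 3 controls (28.6%, against 16.4% of all genes), and 4 had them all below (8.16%, against 16.4%). In KDM6B OE 16 were above (32.7%, against 11.6%) and only Setd5 was below (2.04%, against 10.9%). With a trend on transcript length and GC content removed, as described next, these counts became 5 above (against 11.7% of all genes) and 11 below (against 19%) of 49 in the double lesion, and 5 above (against 7.93%) and 7 below (against 12.3%) in KDM6B OE.

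The members' transcripts are long, with a median of 5.95 kb against 3.05 kb for all genes tested, at a median GC content of 49.8% against 49.9%. The libraries differed in trends of all genes on transcript length and on GC content. The length slope, in log2 units per doubling of length, was -0.160 to -0.013 in Vav Cre and -0.085 to 0.069 in Tet2 KO. It was 0.003 to 0.059 in KDM6B OE and 0.022 to 0.078 in the double lesion. At equal length, the slope per 10 percentage points of GC was -0.325 to 0.111 in Vav Cre and -0.180 to 0.035 in Tet2 KO. That GC slope was 0.056 to 0.083 in KDM6B OE and 0.021 to 0.147 in the double lesion. The members' median deviation from their own means was lowest in Vav Cre 2 (-0.217) and Tet2 KO 2 (-0.154), the 2 libraries with the steepest negative slopes. When a smooth trend on length and GC content was removed from each library, the members' medians became -0.0003 in KDM6B OE, -0.009 in Tet2 KO and -0.001 in the double lesion, and 24, 22 and 24 of 49 members were positive, where 35, 32 and 37 had been. Among the members themselves the double lesion difference had a Pearson correlation of 0.12 with log2 length (49 genes that share libraries), against 0.25 over 12956 genes. The length slopes of Vav Cre did not overlap those of KDM6B OE or the double lesion, but length slopes also varied within a genotype. In Tet2 KO they were 0.069, -0.085 and 0.024, with median member deviations of 0.063, -0.154 and 0.072. The part of the trend in the shift, apart from that of genotype, was not tested.

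**Figure D3:**
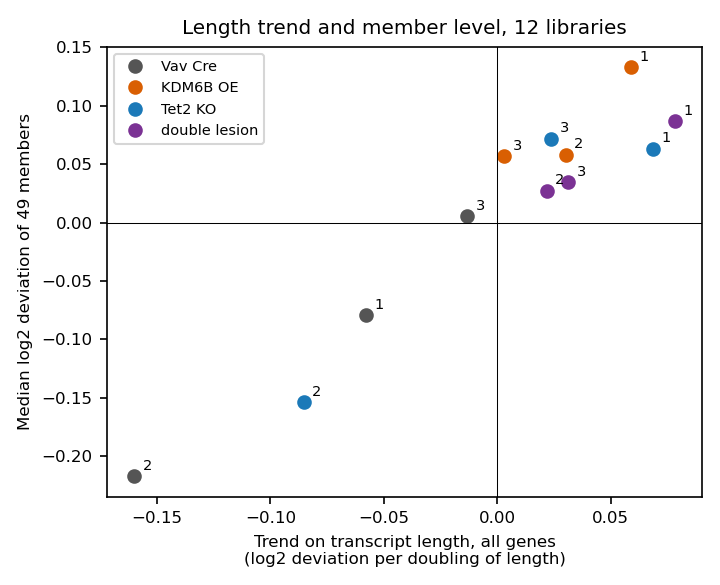
Each point is a library: horizontally, its trend on transcript length over all genes (log2 deviation per doubling of length), vertically, the median log2 deviation of the 49 members tested from their means over 12 libraries, with replicate numbers beside the points. Vav Cre 1 and 2 and Tet2 KO 2 lie low on both axes.

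**Figure D4:**
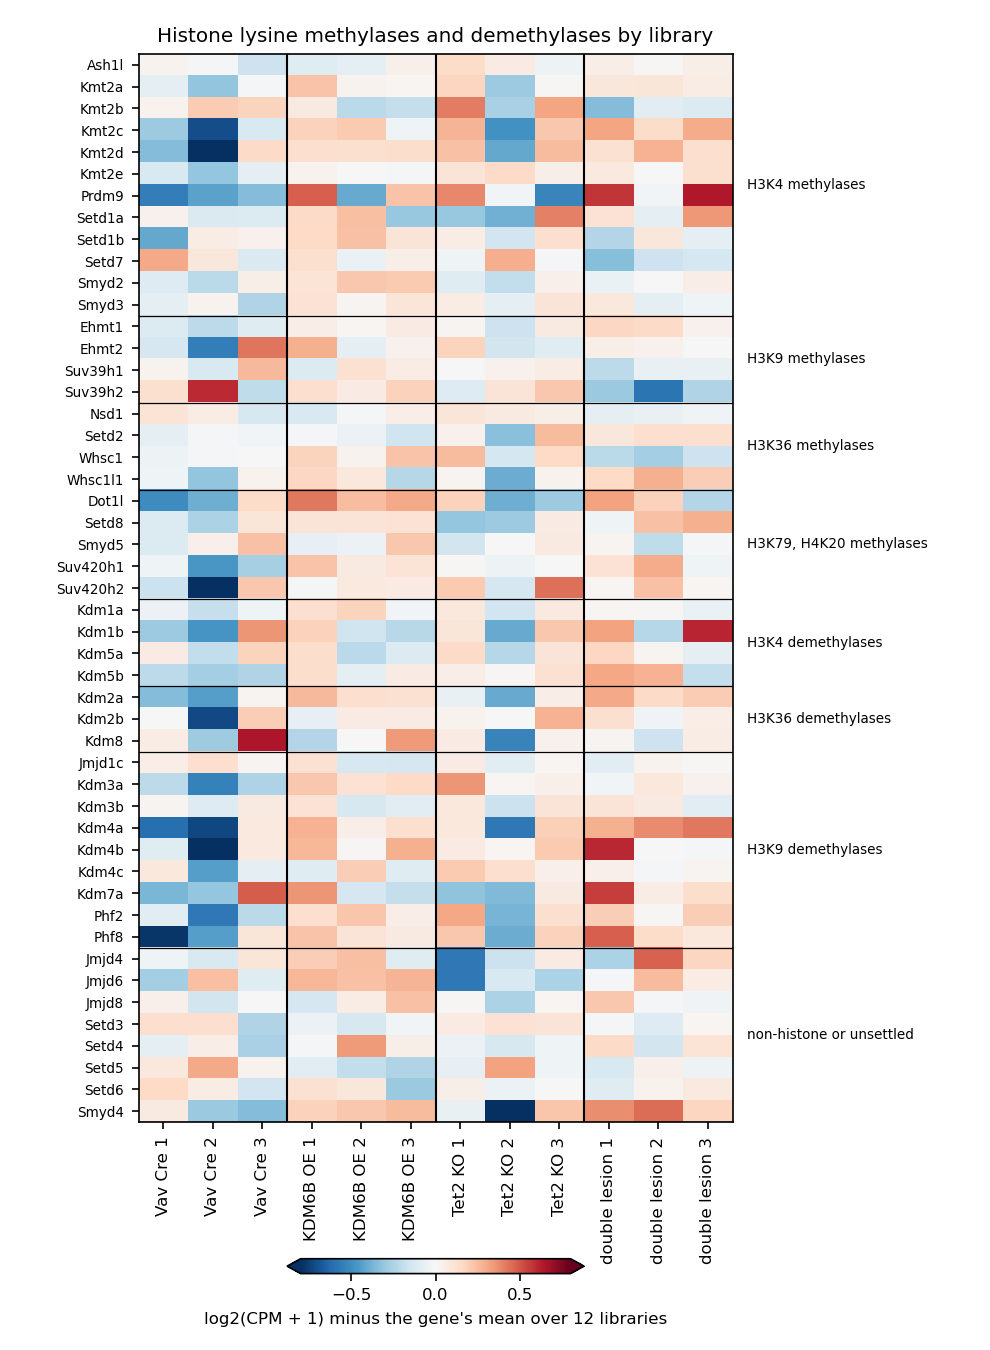
Each cell is log2(CPM + 1) of a member in a library minus that gene's mean over 12 libraries, from blue (below) to red (above), with members ordered by role. The columns of Vav Cre 2 and Tet2 KO 2 are blue across most roles, and Suv39h2 and Whsc1 are blue in all 3 double lesion columns.

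With that trend removed, 1 member was higher in the double lesion than in Vav Cre (2.04%, against 4.69% of all genes) and 4 were lower (8.16%, against 8.95%), so both shares were below or near the background. Of the 4 H3K9 methylases among the members, 3 were lower. The other, Ehmt1, the partner of Ehmt2, was not called and had a positive difference of 0.06 ± 0.08 (log2, adjusted p = 0.679). As deposited, Ehmt1 was at 112, 105 and 113 CPM in Vav Cre, 126, 122 and 127 in KDM6B OE, 123, 108 and 128 in Tet2 KO, and 136, 135 and 124 in the double lesion. Its double lesion libraries were all above the controls, by 0.25 ± 0.10 (log2, unadjusted p = 0.0196, adjusted p = 0.0865). Suv39h2, the second H3K9 trimethylase, fell by 0.63 (SE 0.20, adjusted p = 0.0459). Suv39h1 fell by 0.32 (SE 0.10, adjusted p = 0.0384) and Ehmt2 (G9a), which dimethylates H3K9, fell by 0.39 (SE 0.12, adjusted p = 0.0449). Kmt2b (MLL2), a methylase of H3K4 at bivalent promoters, fell by 0.76 (SE 0.20, adjusted p = 0.0246). Kmt2c was still higher at 0.49 ± 0.14 (adjusted p = 0.0365), while Kdm4a at 0.49 (adjusted p = 0.0657) and Kdm2a at 0.34 (adjusted p = 0.0622) did not pass.

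Before the trend was removed, none of these 4 lower members passed. Suv39h2 (ENSMUSG00000026646.16, chromosome 2, 3455815 to 3475031) was at 19.1, 26.8 and 14.98 CPM in Vav Cre, 19.2, 18.3 and 19.9 in KDM6B OE, 16.1, 18.8 and 20.3 in Tet2 KO, and 13.99, 11.2 and 14.6 in the double lesion. Its 3 double lesion libraries were below all 9 others, with a difference from Vav Cre of -0.55 ± 0.20 (log2, adjusted p = 0.0827), which becomes -0.34 without Vav Cre 2. An exon of Dclre1c overlaps Suv39h2 on the opposite strand.

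Ehmt2 (ENSMUSG00000013787.15, chromosome 17, 34898469 to 34914052, plus strand) was at 51.6, 38.4 and 76.8 CPM in Vav Cre, 69.2, 53.8 and 58.1 in KDM6B OE, 64.2, 51.1 and 53.0 in Tet2 KO, and 58.7, 58.1 and 56.7 in the double lesion. The control libraries spanned all the others, and the plain difference of 0.11 ± 0.20 (adjusted p = 0.734) has the opposite sign to that with the trend removed. Kmt2b (ENSMUSG00000006307.16, chromosome 7, 30568858 to 30588726, minus strand) was at 15.3, 17.4 and 17.1 CPM in Vav Cre, 15.9, 12.8 and 13.1 in KDM6B OE, 20.3, 12.4 and 18.9 in Tet2 KO, and 11.6, 14.1 and 13.9 in the double lesion. All 3 double lesion libraries of Kmt2b were below the controls (-0.31 ± 0.20 on the log2 scale, adjusted p = 0.298), and KDM6B OE overlapped them. For Suv39h1 (ENSMUSG00000039231.18, chromosome X, 8061171 to 8074760, minus strand) the plain difference was -0.16 ± 0.11 (adjusted p = 0.325), or -0.25 without Vav Cre 2 and -0.06 without Vav Cre 3, and the double lesion libraries overlapped the controls. Both Ehmt2 and Kmt2b have GC-rich transcripts, at 60.8% and 59.1%.

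**Figure D5:**
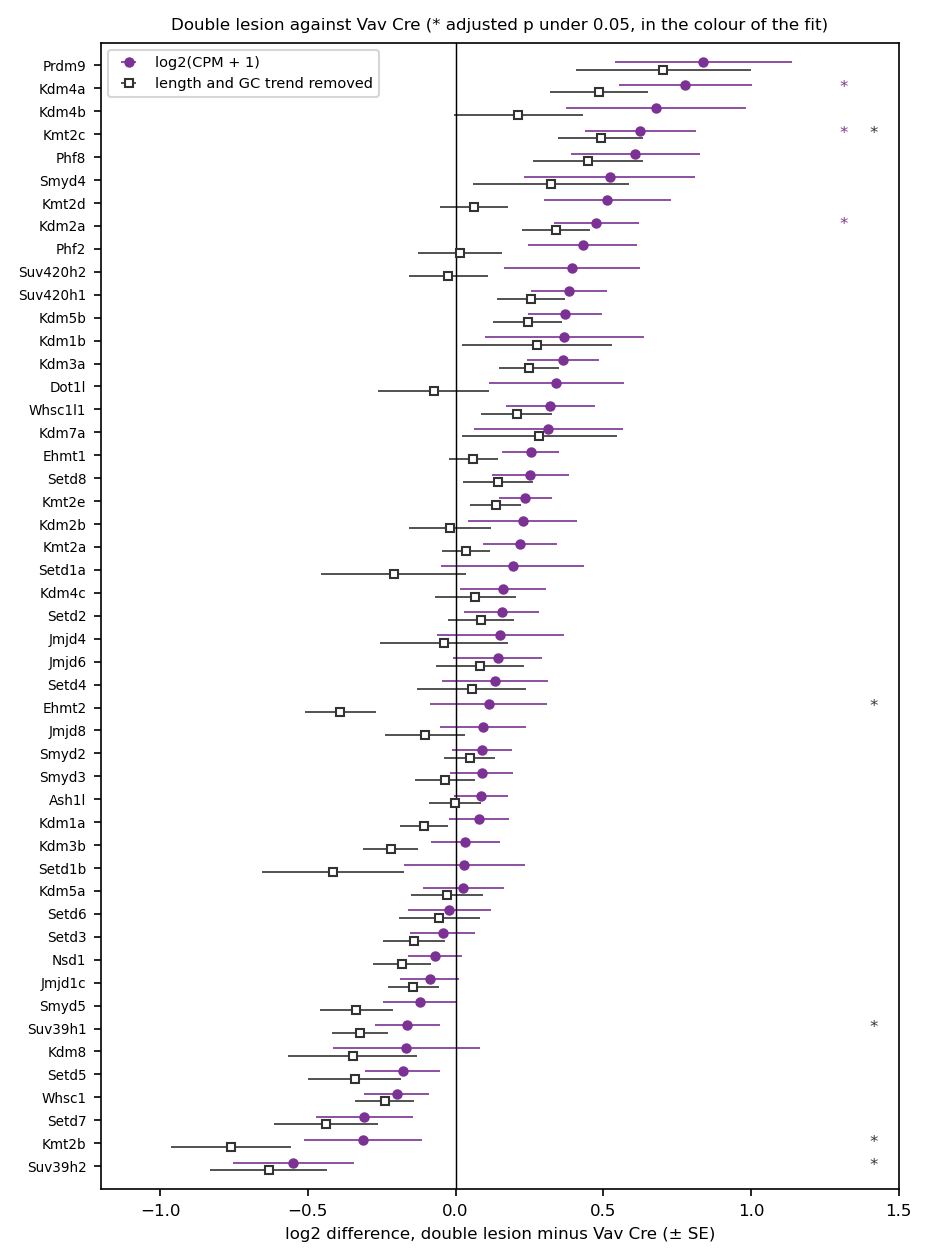
Log2 difference of the double lesion from Vav Cre with its SE for 49 members, from the values as deposited (filled circles) and with the length and GC trend removed (open squares). Asterisks in the colour of each fit mark adjusted p under 0.05: Kdm4a, Kmt2c and Kdm2a in the first, and Kmt2c, Ehmt2, Suv39h1, Kmt2b and Suv39h2 in the second.

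In neither single lesion did limma call a member against Vav Cre. KDM6B OE gave 0 of 49 by limma (background 0.598% of genes in either direction) and 13 at an unadjusted p under 0.05 (26.5%, against 21.6% of all genes). There edgeR called 0 (background 0.598%) and DESeq2 1 (2.04%, against 6.26%). Tet2 KO gave 0 by limma (background 0.0307%) and 3 at an unadjusted p under 0.05 (6.12%, against 13.5%). There edgeR called 0 (background 0.0307%) and DESeq2 1 (2.04%, against 1.23%). Same-numbered libraries of Vav Cre and Tet2 KO deviated together, and with the replicate number as a block this comparison still gave 0 members, and 1 gene among all tested where there had been 4. Both comparisons use the same 3 control libraries. The member with the lowest p in each was Kdm3a (ENSMUSG00000053470.13, chromosome 6, 71588972 to 71632990, minus strand). It was at 86.5, 68.3 and 84.1 CPM in Vav Cre, 117, 108 and 112 in KDM6B OE, 128, 101 and 103 in Tet2 KO, and 98.3, 106 and 102 in the double lesion. The 3 controls were below all 9 other libraries, and the double lesion was below KDM6B OE and overlapped Tet2 KO. On the log2 scale Kdm3a exceeded the control by 0.50 ± 0.12 in KDM6B OE libraries (adjusted p = 0.0806) and by 0.47 ± 0.12 in those of Tet2 KO (adjusted p = 0.217). The DESeq2 call in both comparisons was Kdm3a.

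In KDM6B OE the next members by p were Suv420h1 (0.39, adjusted p = 0.130), Kdm2a (0.43, 0.136), Smyd2 (0.27, 0.159) and Kmt2c (0.49, 0.162), all as log2 differences. Suv420h1 was at 67.0, 49.3 and 57.0 CPM in Vav Cre and 80.7, 72.2 and 74.2 in KDM6B OE. Its KDM6B OE libraries were all above the controls. Setd5, a SET protein of unsettled substrate, was the member with all 3 KDM6B OE libraries below the controls, at 63.7, 58.8 and 57.1 CPM against 71.8, 83.7 and 68.9. In Tet2 KO they were Kmt2e (0.27, adjusted p = 0.258), Kdm5b (0.30, 0.327), Suv420h2 (0.48, 0.382) and Kmt2c (0.37, 0.402). The Suv420h2 difference became 0.15 without Vav Cre 2 and 0.74 without Vav Cre 3. That of Kmt2c became 0.21 without Vav Cre 2, was 0.24 on leaving out Tet2 KO 1 and was 0.62 on leaving out Tet2 KO 2, and its KDM6B OE difference became 0.33 without Vav Cre 2. Kdm5b, which removes H3K4 trimethylation, was at 131, 125 and 128 CPM in Vav Cre and 157, 152 and 164 in Tet2 KO, and Kmt2e at 229, 201 and 237 against 268, 277 and 257. Kdm3a, Kdm5b and Kmt2e were the 3 members (6.12%, against 6.87% of all genes) whose Tet2 KO libraries were all above the controls, and no member had them all below (background 5.7%).

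The double lesion did not differ from either single lesion in any member at the threshold. Against KDM6B OE there were 0 calls among members and 0 among all genes (0%), with 2 members at an unadjusted p under 0.05 (4.08%, against 5.91%). Against Tet2 KO there were 0 members (background 0.215%), with 7 at an unadjusted p under 0.05 (14.3%, against 10.6%). Both edgeR and DESeq2 called 0 members in these comparisons. Their backgrounds were 0% and 0.153% of genes against KDM6B OE, and 0.153% and 1.16% against Tet2 KO. Against KDM6B OE, the double lesion libraries were all above in 2 members (4.08%, background 8.98%) and all below in 6 (12.2%, background 9.72%). Against Tet2 KO they were all above in 4 (8.16%, background 10.8%) and all below in 6 (12.2%, background 10.9%). Whsc1 (Nsd2, ENSMUSG00000057406.16, chromosome 5, 33820725 to 33897975, plus strand), which dimethylates H3K36, had the lowest p in both. It was at 122, 124 and 126 CPM in Vav Cre, 142, 128 and 148 in KDM6B OE, 150, 114 and 141 in Tet2 KO, and 108, 104 and 112 in the double lesion. All 3 double lesion libraries were below the 9 others, by -0.36 ± 0.11 from KDM6B OE (log2, adjusted p = 0.576), -0.31 ± 0.11 from Tet2 KO (0.376) and -0.20 ± 0.11 from Vav Cre (0.232). Nelfa overlaps an exon of Whsc1 on the opposite strand.

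After Whsc1, the lowest p against KDM6B OE were those of Suv39h2 (-0.50, adjusted p = 0.771), Smyd2 (-0.18, 0.906), Setd7 (-0.26, 0.906) and Setd2 (0.19, 0.906). Against Tet2 KO they were those of Jmjd6 (0.41, adjusted p = 0.379), Setd8 (0.34, 0.412), Kdm2a (0.36, 0.421) and Smyd4 (0.69, 0.437). Without Tet2 KO 2 the Smyd4 difference became 0.25 and that of Kdm2a 0.22. Setd7 monomethylates H3K4 and many other proteins, and Setd8 (Kmt5a) monomethylates H4K20. Chosen after their values were seen, 3 members lay below all 9 other libraries in the double lesion, namely Suv39h2, Whsc1 and Setd7 (6.12%, against 3.28% of all genes), and 1, Kdm4a, lay above (2.04%, against 2.44%). Setd7 was at 16.2, 18.4 and 18.7 CPM there and at 19.1 to 25.8 CPM in the rest. With the trend removed the same 3 were still below all others, and Kdm4a was no longer above.

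Averaged over both Tet2 states, the 6 transgenic libraries differed from the 6 others in 1 member, Kdm2a, which was higher by 0.39 ± 0.10 (log2, adjusted p = 0.0470), against 2.52% of all genes higher and 1.83% lower. Kdm2a was also the only member, 2.04% of 49, whose transgenic libraries were all above the others (background 1.59%). There were 14 members at an unadjusted p under 0.05 (28.6%, against 26.9%). By edgeR 0 members were called (background 3.27%) and by DESeq2 2 (4.08%, against 13.2%). The call was made with the trend removed (0.30 ± 0.08, adjusted p = 0.0463), where Kmt2b was lower as well (-0.61 ± 0.14, adjusted p = 0.0298), against 1.90% of genes higher and 2.79% lower. It was lost without any single library but Vav Cre 3, at adjusted p of 0.0522 to 0.126. The next members were Jmjd6 (0.36, adjusted p = 0.0650), Kdm4a (0.51, 0.0709), Suv420h1 (0.27, 0.0896) and Setd8 (0.27, 0.0908). Jmjd6, a Jumonji lysyl hydroxylase of splicing factors, was at 78.5, 76.7 and 78.9 CPM in KDM6B OE and 64.4, 78.0 and 68.0 in the double lesion, against 53.9, 77.2 and 60.8 in Vav Cre and 43.6, 59.9 and 54.6 in Tet2 KO. The immediate early genes, whose sums are given above, separate the same libraries, and their part in these values was not tested.

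Averaged over the transgene, floxed Tet2 changed 0 members (background 0.207%), with 2 at an unadjusted p under 0.05 (4.08%, against 14.7%), 0 by edgeR (background 0.115%) and 0 by DESeq2 (background 2.76%). The 5 lowest p belonged to Kmt2e (0.17, adjusted p = 0.253), Kdm5b (0.19, 0.327), Suv39h2 (-0.30, 0.351), Jmjd6 (-0.21, 0.366) and Kdm3a (0.17, 0.378). Without Vav Cre 2 the Suv39h2 value became -0.20. The interaction of the lesions, which asks whether the double lesion departs from the sum of the single ones, gave 0 members and 0 genes (0%) by limma and by edgeR (0%), and 0 members by DESeq2 (background 0.0383%). Because the KDM6B OE label names no Cre, a difference in Cre cannot be told apart from the lesions in this term or in the averages. Kdm3a (-0.60 ± 0.17, unadjusted p = 0.00350) and Whsc1 (-0.47 ± 0.16, unadjusted p = 0.00928) were the 2 members under 0.05 (4.08%, against 4.43%), and their adjusted p was 0.999. Kmt2e (-0.20), Smyd3 (-0.21) and Suv420h1 (-0.25) followed at the same adjusted p. Leaving out Vav Cre 2 took Kmt2e to -0.13 and Suv420h1 to -0.15, and leaving out Vav Cre 3 took Smyd3 to -0.14.

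The enzymes work in complexes, and lists of their partners were read in the double lesion against Vav Cre, where 14.9% of all genes were called. Among 13 partners and readers of H3K9 methylation 0 were higher and 3 were lower, all of them HP1 proteins that bind this mark, and the list's median was -0.25 against 0.05 for all genes. That list also holds Setdb1 and Setdb2, H3K9 methylases outside the members, and neither was called as deposited or with the trend removed. Cbx5 (HP1 alpha) was at 213, 377 and 150 CPM in Vav Cre, 122, 131 and 144 in KDM6B OE, 147, 175 and 135 in Tet2 KO, and 80.5, 96.9 and 119 in the double lesion. The double lesion libraries were below all 9 others, and Vav Cre 2 was the highest. The difference was -1.22 ± 0.25 (log2, adjusted p = 0.0109), and Cbx5 was also lower on average with the transgene (-0.71 ± 0.18, adjusted p = 0.0442). Cbx3 fell by 0.58 (SE 0.14, adjusted p = 0.0182) and Cbx1 fell by 0.45 (SE 0.14, adjusted p = 0.0454), and reads of both genes can be shared with near-identical copies, which makes their values uncertain. With the trend removed, Cbx5 and Cbx3 were still lower, Trim28, the KAP1 scaffold of H3K9 methylation, was lower too (-0.75 ± 0.14, adjusted p = 0.00493), and Cbx1 was not called. The Cbx5 call in the double lesion was lost when double lesion 1 was left out, that of Cbx3 also when Vav Cre 2 was, and that of Cbx1 on leaving out any library but Vav Cre 3 and Tet2 KO 2 (adjusted p up to 0.171). On average with the transgene, Cbx5 kept its call only without Vav Cre 2 or Vav Cre 3 (adjusted p up to 0.120 without the others).

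Of 16 COMPASS and MLL subunits and partners, 2 were higher and 2 lower. Men1 (menin, which anchors MLL enzymes) was higher by 0.97 ± 0.25 (adjusted p = 0.0228) and Rbm15b by 1.10 ± 0.28 (0.0232). Dpy30, a core subunit, was lower at -0.64 ± 0.17 (0.0293) and Psip1 (LEDGF), a reader that tethers MLL, at -0.52 ± 0.13 (0.0230). With the trend removed, Men1, Rbm15b and Psip1 were called again, Dpy30 was not, and Ash2l, another core subunit, was lower (-0.40 ± 0.09, adjusted p = 0.0108). In the LSD1 and CoREST complex 2 of 13 were higher, Rcor2 (1.13 ± 0.30, adjusted p = 0.0271) and Rcor3 (0.49 ± 0.14, 0.0353), neither of them with the trend removed. Among 14 readers and partners of H3K36 and H4K20 methylation, 2 were higher, Trp53bp1 (53BP1, which binds H4K20 dimethylation) by 0.84 ± 0.22 (adjusted p = 0.0266) and Zmynd11 by 0.34 ± 0.10 (0.0446), and only Trp53bp1 was called with the trend removed. None of 11 DOT1L and super elongation partners was called by limma, with 3 at an unadjusted p under 0.05, where 32.3% of all genes were. Ccnt1, the cyclin of P-TEFb, had the lowest p there (0.44 ± 0.16, adjusted p = 0.0698). All 8 partner calls of these complexes were lost without double lesion 1 and all without Vav Cre 2. Men1, Psip1, Dpy30, Rbm15b, Rcor3 and Zmynd11 lost theirs also without double lesion 2, and Men1, Rbm15b, Rcor2, Rcor3, Trp53bp1 and Zmynd11 without double lesion 3. Rbm15b, Rcor2 and Rcor3 were not called without Vav Cre 1 either, nor Rcor3 without KDM6B OE 2. Zmynd11 was not called without Tet2 KO 3 or any KDM6B OE library, and lost its call in 15 of 24 alternatives.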

How the data were processed

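The members, their role groups and the partner and marker lists were chosen with earlier results of these data known. Per the labels' protocols, RNA of sorted cells was amplified with an oligo-dT kit (SMARTer) and tagmented (Nextera), which does not mark strand. Per the submitters' processing notes, TopHat2 2.0.10, HTSeq 0.6.0 and edgeR 3.8.6 were used with mm10; the annotation is not given in the sources used here, nor is the strand setting. The authors deposited a signal per gene and library, counts divided by an effective library size (CPM whose column totals vary), where the design foresaw plain CPM; the test was kept. All values (100%) were whole multiples of 1 read within 1e-06 reads, so read counts were recovered from the deposited values; the gene with the fewest had 10 reads over 12 libraries.

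Values were taken as log2(CPM + 1), with genes above 1 CPM in at least 3 libraries (13046 of 15366). limma 3.58.1 (R 4.3.3, empirical Bayes with a mean trend) fitted 1 mean per group over 12 libraries, 8 residual degrees of freedom, with Benjamini-Hochberg adjustment over all genes tested in each of 8 contrasts and a threshold of 0.05. Replicate numbers were read as pairing Vav Cre with Tet2 KO only, where all 3 pairs of residuals correlated at 0.300 or more. edgeR 4.0.16 and DESeq2 1.42.0 ran on recovered reads. The length and GC trend was a spline of 5 degrees of freedom per library over 12956 genes with a GENCODE vM21 transcript. Members were named in full when called, or as the 5 of lowest p where fewer were called. Old symbols of 5 members were matched through synonyms. On simulated data for the double lesion contrast (12815 genes), the test found 10.2% of 1.5-fold changes, 65.3% of 2-fold changes and 100% of 4-fold changes, with 7 false calls. The simulation gave every gene the same assumed dispersion and held no length or GC trend. These shares are therefore not the power of the test in the libraries themselves. No column held a sample of another series. Protein sequences were not used here.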

Additional observations from a re-analysis of the deposited data

Results flagged for a closer look

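Kdm3a was flagged from its values because the floxed Tet2 libraries moved in opposite directions with and without the transgene, with no overlap either way. Tet2 KO was above Vav Cre in all 3 libraries while the double lesion was below KDM6B OE in all 3. The difference of these differences was -0.60 on the log2 scale (SE 0.17), and limma's interaction term gave an adjusted p of 0.999 and an unadjusted p of 0.00350. With the length and GC trend removed it was -0.50 (SE 0.14). The share of all genes with this no-overlap pattern is not given here. By limma's interaction term 2 members (4.08%) had an unadjusted p under 0.05, against 4.43% of all genes.

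Whsc1 (Nsd2) was flagged in the same way for the transgene. KDM6B OE was above Vav Cre in all 3 libraries while the double lesion was below Tet2 KO in all 3. Its difference of differences was -0.47 (SE 0.16), with an adjusted p of 0.999 and an unadjusted p of 0.00928, and -0.42 (SE 0.14) with the trend removed. No test for outlying samples was run, but each library was left out in turn. Over 23 alternative settings, these refits among them, the difference of differences was -0.70 to -0.49 for Kdm3a and -0.59 to -0.39 for Whsc1.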

How the results depend on the processing

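The 3 members called in the double lesion against Vav Cre became 8 with equal column totals, 0 when the fit held the compared groups alone, 0 with a Y transcript term, 5 with array weights, 5 with the length and GC trend removed (1 higher, 4 lower), 8 with DESeq2 (7 higher, 1 lower) and 1 without the 2 libraries of steepest length trend, a setting chosen after seeing the data. Leaving out single libraries gave 0 to 10, 10 when Vav Cre 3 was left out and 0 when Vav Cre 2, KDM6B OE 2 or 3, or double lesion 1 or 2 was. The 1 member of the transgene average became 2 with equal totals, 0 with no filter, 2 with a Y transcript term, 4 with array weights, 2 with the trend removed, 0 with edgeR, 2 with DESeq2 and 0 to 9 without single libraries (9 without Vav Cre 3). For KDM6B OE against Vav Cre the 0 became 1 with a Y transcript term, 4 with array weights, 1 with DESeq2 and 0 to 8 without single libraries (8 without Vav Cre 3), and for Tet2 KO against Vav Cre 1 with DESeq2. The other 4 contrasts stayed at 0 members under every setting run. Ehmt2 in the double lesion, at 0.11 in log2, turned to -0.39 with the trend removed, with or without the block, to -0.12 without the 2 libraries and from -0.12 (Vav Cre 2 left out) to 0.37 (Vav Cre 3 left out) without single libraries. The cause of these changes was not tested. Residuals of same-numbered libraries correlated at 0.300 to 0.340 in Vav Cre with Tet2 KO, where the block gave 0 members. In every other pair of groups at least 1 correlation was under 0.1 (-0.149 to 0.388 over 18 pairs), so no pairing was read there. Libraries numbered 1 nevertheless correlated between all groups, at 0.158 (KDM6B OE with Tet2 KO) to 0.388 (Tet2 KO with double lesion). Of the 12 libraries, 8 correlated best with their own number. Whether same-numbered libraries shared a batch was not tested. The replicate block gave 6 members in the double lesion, 5 in the transgene average and 1 in KDM6B OE, and with the trend removed as well (added after seeing the data) 7 and 4. Over named genes, called or not in the main fit, 1221 values under alternatives kept direction and side of the threshold. Of the others, 157 lost the call, 40 gained it and 4 changed sign. For a gene not called, keeping its side only means staying uncalled. The double lesion calls were lost in 11 of 24 alternatives for Kdm4a, 11 of 24 for Kmt2c and 12 of 24 for Kdm2a. The Kdm2a call in the transgene average was lost in 14 of 23. The genes called among all tested moved as well. They ranged from 289 to 3589 in the double lesion, against 1947, and from 94 to 2777 in the transgene average, against 568. In KDM6B OE they ranged from 22 to 1936, against 78, and in Tet2 KO from 0 to 305, against 4. The member counts of this paragraph stand without the share of all genes at each setting, and are not read as results about the members.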
